A study of Danio rerio with 27 samples.

Results

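Among 32524 genes measured in 9 adult zebrafish tissues, 129 genes listed under a placeholder name were present in testis and nearly absent from the other 8 tissues. A placeholder name is a symbol that starts with si:, zgc: or LOC. The members were selected on their levels: a mean of at least 20 TPM (a unit in which reads are corrected for transcript length and scaled to the same sum in each library) over the 3 testis libraries, and a mean below 1 TPM in each of the 8 other tissues. Of the 6258 genes with a placeholder name, 5676 carry si: and 582 carry zgc:, and 0 carry LOC in the table of names used. The members comprise 124 si: genes and 5 zgc: genes. Because these values chose them, the difference between testis and the other tissues is described here without a test.

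The libraries came from testis, brain, heart, intestine, liver, muscle, skin, spleen and tail of adult wild-type TLAB fish, a cross of the AB and TL stocks, with no treatment. Poly(A) RNA was sequenced in 3 strand-specific libraries per tissue. The labels do not say whether the replicates of a tissue came from separate fish, so p-values measure only the spread between these libraries, which may be technical. The study asked whether DCST1 and DCST2, proteins of the sperm membrane, are needed for fertilization in mice and zebrafish. The labels give no age per library.

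The testis produces sperm through spermatogenesis, in which stem cells called spermatogonia divide, enter meiosis as spermatocytes and then reshape as spermatids that build a flagellum. The supporting Sertoli cells nurse these germ cells, and Leydig cells make androgens. The testis is known in many animals for transcribing a large number of genes that other organs do not use, among them young and poorly conserved genes. A si: symbol records only the sequenced clone on which the Sanger Institute's annotators placed a gene, followed by the gene's number on that clone, and a zgc: symbol records a cDNA clone of the Zebrafish Gene Collection. Neither name says anything about function, so roles are not stated here, apart from 1 member with a second name in RefSeq.

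Estimated counts summed to between 5100481 and 14151312 in 26 libraries and to 91119844 in testis replicate 3, so the levels in that library rest on more reads. The label testis held against its markers: all 11 germ cell genes of a fixed list, among them ddx4 and sycp3, were highest in testis, as were the 8 sperm and spermatid genes found, the 3 Sertoli cell genes found and the 4 Leydig cell genes. Of the 5 oocyte genes listed, 4 were highest in testis too, and the 5 summed to 14.4, 14.4 and 17.1 TPM in testis replicates 1, 2 and 3. No marker of the other tissues or of blood was highest in testis. The 2 liver markers still summed to 279, 226 and 142 TPM in these libraries, and the blood marker found had 44.5, 104 and 40.8 TPM. The 3 skin keratin markers summed to 10425, 6086 and 9853 TPM in muscle replicates 1, 2 and 3, so the muscle libraries held skin transcripts as well as muscle transcripts. Muscle replicate 2 stood apart from the other libraries outside testis. The 11 germ cell markers summed to 3821, 3242 and 3853 TPM in testis replicates 1, 2 and 3, and to 41.7 TPM in muscle replicate 2, with 1.84 and 9.09 TPM in muscle replicates 1 and 3. The 8 sperm markers summed to 38.3 TPM in muscle replicate 2, against 2.38 and 9.87 TPM in muscle replicates 1 and 3. Some markers of other tissues were higher in that library too. The 3 heart markers summed to 37.96 TPM there, against 1.62 and 1.67 TPM in muscle replicates 1 and 3. The blood marker found had 629 TPM, against 195 and 178 TPM. The 2 liver markers were also highest there among the muscle libraries. The brain sum was highest there too, but through mbpa alone, with 210 TPM against 179 and 129 TPM in muscle replicates 1 and 3. The brain marker elavl3 had 0 TPM there, and gfap was highest in muscle replicate 3, at 0.217 TPM. The 2 intestine markers went the other way, with 5.46 TPM against 6.95 and 8.71 TPM, as did the skin markers given above.

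Of all placeholder-named genes 2.06% met the limits, against 0.846% (194 of 22943) for genes with another symbol, 1.11% (37 of 3323) for identifiers with no symbol and 1.11% (360 of 32524) for all genes. The members therefore made up 35.8% of all genes at these limits in testis. For comparison, 6258 of all 32524 genes had a placeholder name. So did 698 of the 7102 genes with a testis mean of at least 20 TPM, with no limit on the other tissues. The same limits set on another tissue, a mean of at least 20 TPM there and below 1 TPM in the 8 others, found 25 placeholder-named genes of 274 genes in brain (9.12%) and 17 of 54 in intestine (31.5%). In heart, spleen and tail they found 10, 1 and 2 genes, none with a placeholder name, and in liver, muscle and skin they found 0 genes. These shares are descriptions of the count, since the limits were chosen with testis in view.

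The members ranged in testis mean between 20.4 and 180 TPM, with a median of 39.9 TPM. The mean was at least 100 TPM in 6 members, at least 50 TPM in 41 and under 30 TPM in 33. Together they took 7391, 5276 and 5895 TPM in testis replicates 1, 2 and 3, which is 0.739%, 0.528% and 0.589% of all transcripts by this unit, for a mean of 6187 ± 1088 TPM (SD, n = 3). The 194 genes with other symbols at the same limits took 0.999% ± 0.109 (SD, n = 3). In bulk tissue a lower level can mean fewer cells that express a gene or less RNA per cell, and the 2 cannot be told apart here. The scaling also matters for the level: after median-of-ratios rescaling, which divides the testis libraries by 1.98 to 2.32, the members summed to 2821 TPM. Then 58 placeholder-named genes met the limits, 54 of them among the 129. The rescaling also moved levels outside testis against the limit of 1 TPM. It divides the liver libraries by 0.213 to 0.417, which raises them, and the brain libraries by 2.09 to 2.20, which lowers them.

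**Figure D1:**
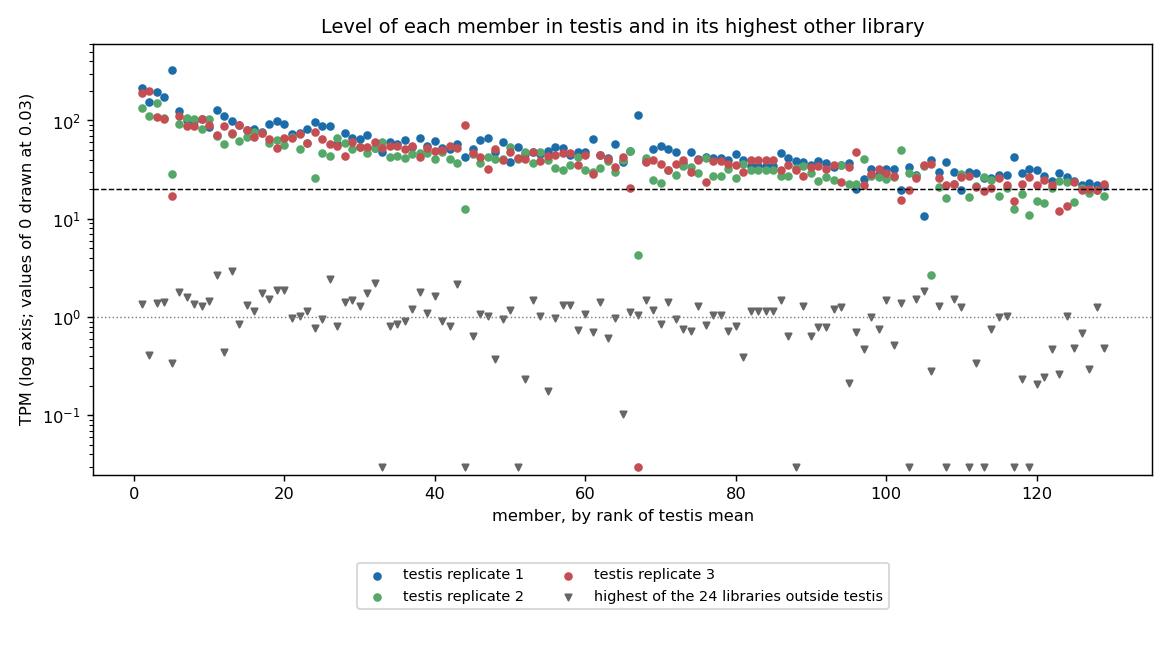
The plot shows each member, ordered by its testis mean, with its TPM in the 3 testis libraries (circles) and in whichever of the 24 other libraries was highest (triangles) on a log axis, where values of 0 are drawn at 0.03. The dashed line marks 20 TPM and the dotted line 1 TPM. In 128 of 129 members every testis value lies above every other value, and the exception has a testis value of 0.

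The gene si:dkey-27d5.13 (ENSDARG00000114254) had the highest testis mean, with 215, 134 and 190 TPM in testis replicates 1, 2 and 3 and at most 1.37 TPM in any other library. Next came si:rp71-39b20.6, with 154, 110 and 197 TPM in testis and at most 0.412 TPM elsewhere. The third was si:ch211-66i15.4, with 196, 149 and 109 TPM in testis and at most 1.40 TPM elsewhere. These levels were high in all 3 testis libraries, and the library with the highest value was not the same in every one of these genes. The gene si:ch211-9n13.3, listed at 560 bases, had 174, 106 and 103 TPM in testis and at most 2 counts in any other library, under the floor of 3 counts that is used here as the least a library can show. That floor covers counting error only.

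The fifth gene by mean owed its place to 1 library. The gene si:ch211-127n13.2 had 328 TPM in testis replicate 1 but 28.8 and 17.0 TPM in replicates 2 and 3, so its mean of 125 ± 176 TPM (SD, n = 3) described none of the libraries. Without testis replicate 1 its mean was 22.9 TPM, and the other ways of leaving out a testis library gave up to 178 TPM. It had at most 3 counts in each library outside testis.

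The remaining 7 of the 12 highest members had means between 85.3 and 109 TPM. The gene si:dkey-27d5.12 had 124, 91.2 and 111 TPM in testis and at most 1.80 TPM elsewhere, in brain replicate 1. The gene si:dkey-199f5.3 had 101, 107 and 86.9 TPM in testis and lay just under the limit outside it, with a muscle mean of 0.989 TPM from 0.12, 1.59 and 1.26 TPM in muscle replicates 1, 2 and 3. A narrow range was also seen for si:dkey-11c5.12, with 97.9, 104 and 88.6 TPM. The gene si:ch211-173m16.2, which RefSeq lists as a long noncoding RNA and the tables at 435 bases, had 104, 82.0 and 103 TPM in testis. It had at most 2 counts in any library outside testis. The gene si:ch211-156l18.6 had 86.6, 103 and 89.99 TPM in testis and was above the floor in 9 of the 24 other libraries, with up to 17.8 estimated counts. The gene si:dkey-111e8.4 had 129, 69.7 and 71.2 TPM, and si:dkey-27d5.4 had 111, 58.1 and 87.0 TPM. In both, replicate 1 was the highest of the testis libraries.

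At the testis limit, the nearest members inside were si:ch73-30l9.1 and si:dkey-30j19.3, both at 20.4 TPM, and the nearest placeholder-named genes outside were si:ch211-223o1.3 at 19.97 TPM and si:dkey-58b18.9 at 19.9 TPM. At the limit of 1 TPM outside testis, si:dkey-199f5.3 (0.989 TPM in muscle) and si:dkeyp-20g2.1 (0.985 TPM in spleen) were the nearest inside. The nearest outside were si:ch211-73m21.1, with 1.01 TPM in tail, and si:dkey-234d14.2, with 1.04 TPM in muscle. Genes on both sides of each limit thus had almost the same levels, and the number of members moved with the limits. A testis minimum of 10 TPM gave 255 genes and one of 50 TPM gave 41, while a limit outside testis of 0.5 TPM gave 69 and one of 2 TPM gave 196. Requiring the limits in each single library, in place of the means, left 46 genes.

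Testis replicate 1 was the highest of the 3 testis libraries for 95 members (73.6%), replicate 2 for 14 and replicate 3 for 20. The 194 genes with other symbols at the same limits showed this too, with replicate 1 highest in 141 (72.7%), replicate 2 in 5 and replicate 3 in 48. Among all 7102 genes with a testis mean of at least 20 TPM, replicate 1 was highest in 4009 (56.4%), replicate 2 in 760 (10.7%) and replicate 3 in 2333 (32.8%). The median coefficient of variation over the 3 testis libraries, the SD as a share of the mean, was 19.0% in the members, 15.0% in the genes with other symbols at the same limits and 13.9% in all genes at or above 20 TPM. Of the members, 105 were at or above 20 TPM in all 3 testis libraries, 24 were below it in at least 1 and 4 were below it in at least 2.

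**Figure D2:**
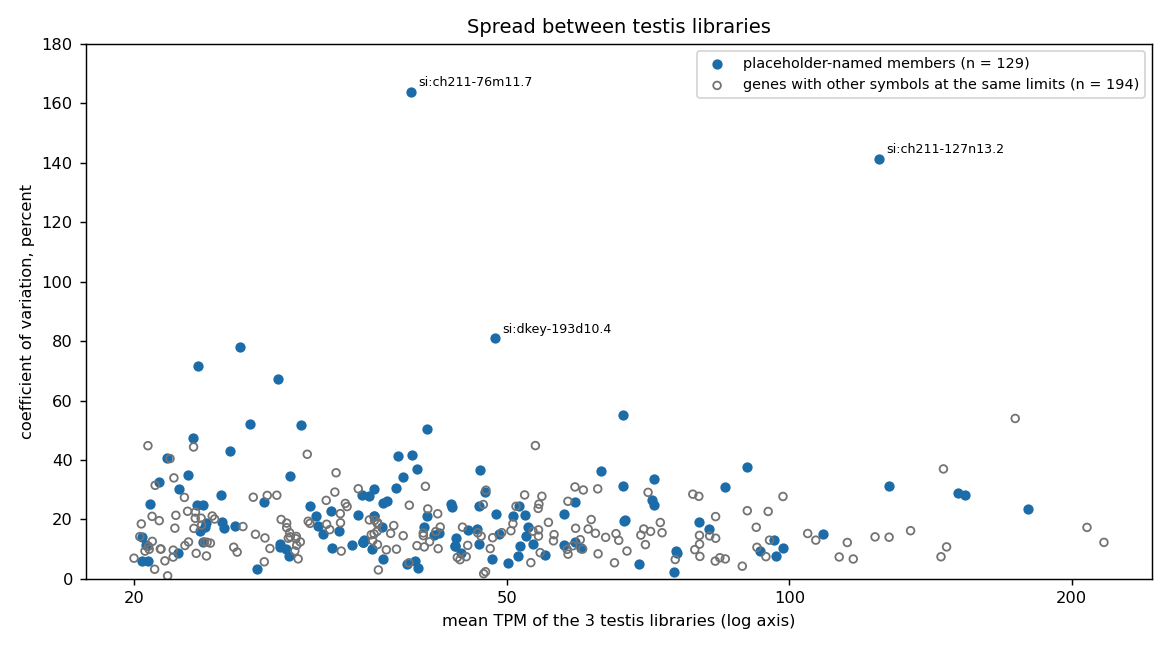
The plot sets the coefficient of variation over the 3 testis libraries (percent) against the testis mean (TPM, log axis) for the 129 members (filled) and the 194 genes with other symbols at the same limits (open). The median is 19.0% for the members and 15.0% for the other genes, and the members si:ch211-76m11.7 and si:ch211-127n13.2 lie far above the rest.

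The widest spread belonged to si:ch211-76m11.7, with 114 TPM in testis replicate 1, 4.30 TPM in replicate 2 and 0 TPM in replicate 3, although replicate 3 was the deepest library. It was thus above 20 TPM in 1 of the 3 testis libraries, from 255 estimated counts. The next was si:ch211-127n13.2, described above. The gene si:dkey-193d10.4, listed at 243 bases, had 42.7, 12.4 and 90.4 TPM, but these values rested on 3, 1 and 48 counts. Few reads also lay behind 3 more members, singled out after their values were seen: another gene listed at 243 bases, with 3, 1 and 8 counts, si:dkey-246m18.5, listed at 270 bases, with 4, 2 and 18 counts, and si:dkey-78a14.6, listed at 280 bases, with 7, 6 and 41 counts. For transcripts this short a single read is worth many TPM, so their levels are uncertain. At the other end, si:ch211-286b5.2 had 77.2, 74.9 and 73.7 TPM in testis, a coefficient of variation of 2.33%. The gene si:dkey-234n3.3 had 27.9, 27.1 and 26.1 TPM (3.23%), and si:ch211-152c8.2 had 41.6, 38.7 and 40.3 TPM (3.60%). In these 3 genes the testis libraries were nearly equal.

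Several members were short. The deposited length is a sum over a gene's transcripts, so lengths were compared among genes with 1 transcript, of which the members held 76. Their median length was 690 bases, against 1374 bases for the 95 such genes with other symbols at the same limits, 839 bases for all 4070 such placeholder-named genes and 1100 bases for all 18265 such genes. Of the 76, 38 were under 700 bases, against 7 of the 95 (7.37%), 1527 of the 4070 (37.5%) and 6400 of the 18265 (35.04%). Length bears on the selection as well. In 14 members 3 counts were worth more than 1 TPM in every library outside testis, so for them a mean below 1 TPM says only that few or no reads were found. In 77 members, these 14 among them, 3 counts were worth more than 1 TPM in at least 1 such library.

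The si: members lay on 96 clones, and 14 of these clones carried at least 2 members, for 42 members in all (33.9% of the 124). Of all si: genes, 64.3% lay on a clone with at least 2 si: genes of any kind. That share counts every si: gene of a clone, while the 33.9% counts members only, so the 2 shares cannot be set against each other. In 7 clones there were at least 3 members. Genes of 1 clone are close to each other in the genome and may be similar copies, which can share reads, so that the single levels are less certain than their sum. The similarity of the copies was not tested, since no sequences of these genes were used here. The clones were singled out after their values were seen.

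The clone dkey-27d5 held the most members, 9 of its 13 listed genes, and these took 623 TPM in testis, or 10.1% of the summed testis level of all members. Beyond si:dkey-27d5.13, si:dkey-27d5.12 and si:dkey-27d5.4, given above, si:dkey-27d5.7 had 58.0, 66.7 and 54.9 TPM in testis replicates 1, 2 and 3, and si:dkey-27d5.10 had 66.0, 51.4 and 59.7 TPM. The gene si:dkey-27d5.2 had 45.6, 47.8 and 38.5 TPM, si:dkey-27d5.1 had 34.9, 35.2 and 23.7 TPM, and si:dkey-27d5.5 had 25.2, 40.9 and 21.9 TPM. The lowest, si:dkey-27d5.3, had 39.2 and 35.9 TPM in replicates 1 and 3 but 2.66 TPM in replicate 2. The replicates thus did not rank alike from gene to gene on this clone. Of the 4 genes of the clone that were not members, si:dkey-27d5.11 had 185, 227 and 170 TPM in testis, more than any member by its mean of 194 TPM. It missed the selection through a muscle mean of 1.20 TPM, in which muscle replicate 2 had 2.96 TPM. The genes si:dkey-27d5.14, si:dkey-27d5.9 and si:dkey-27d5.6 had testis means of 19.6, 15.1 and 11.5 TPM, below the limit. All 13 genes thus had a testis mean above 10 TPM, with means of at most 1.20 TPM in any other tissue. Several have nearly the same listed length: 1541 bases in si:dkey-27d5.3 and si:dkey-27d5.9, 1542 in si:dkey-27d5.4 and si:dkey-27d5.14, and 2369 in si:dkey-27d5.1, si:dkey-27d5.6 and si:dkey-27d5.7.

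**Figure D3:**
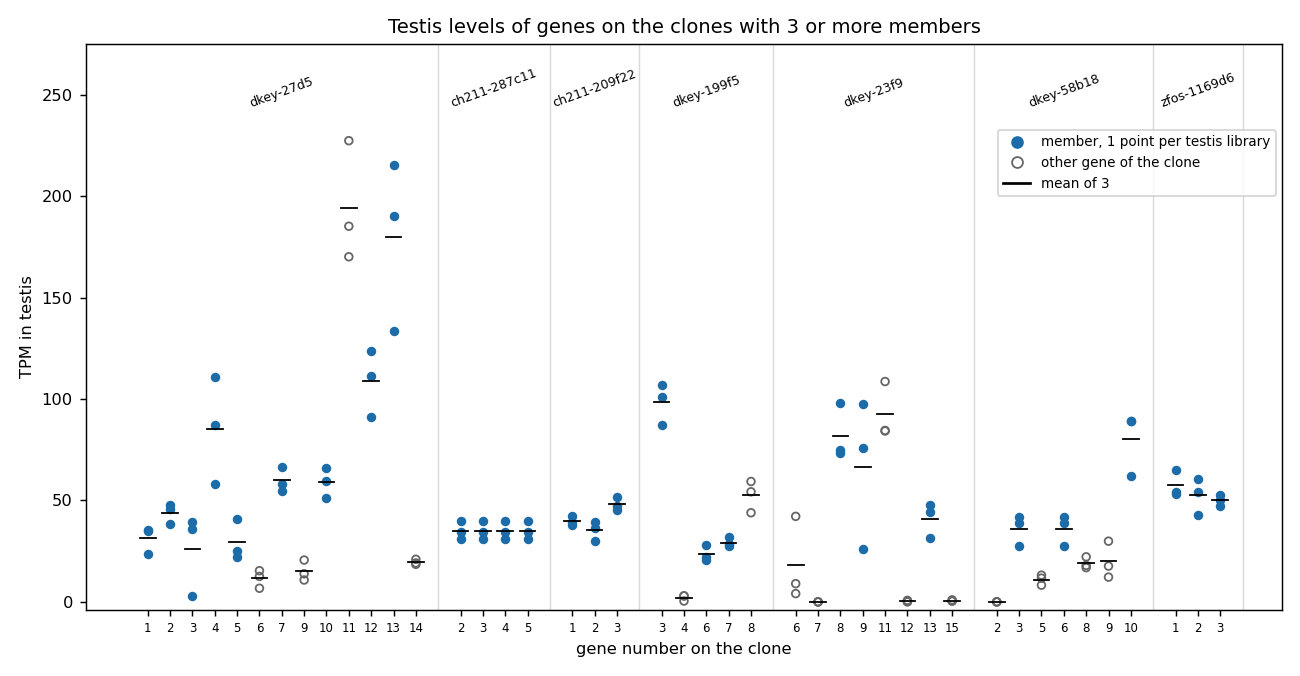
The plot gives the testis TPM of every listed gene on the 7 clones with at least 3 members, with 1 point per testis library, a bar at the mean of 3, filled points for members and open points for other genes of the clone. The 13 genes of dkey-27d5 range in mean between 11.5 and 194 TPM, and the 4 genes of ch211-287c11 share the same values.

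The 4 genes of ch211-287c11, numbered 2, 3, 4 and 5, had identical values in every library, at 34.5, 31.0 and 39.7 TPM in testis and 1893 bases each. The genes si:dkey-58b18.3 and si:dkey-58b18.6 likewise shared 41.7, 27.4 and 39.1 TPM. Among 26657 genes above 1 TPM in some library, 94 (0.353%) shared all values with another gene. These 6 members are best read as 2 measurements, 140 TPM in sum for the first set, since the deposited values do not tell the copies apart. Another gene of the second clone, si:dkey-58b18.10, had 89.0, 62.3 and 89.1 TPM.

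On ch211-209f22 all 3 listed genes were members, with means of 39.9, 35.2 and 48.1 TPM for the genes numbered 1, 2 and 3. On zfos-1169d6 all 3 listed genes were members as well, with means of 57.6, 52.6 and 50.1 TPM. These levels differed little within a clone, although the listed lengths ran between 586 and 1119 bases in zfos-1169d6. On dkey-199f5, 3 of 5 listed genes were members, with means between 23.5 and 98.4 TPM, while si:dkey-199f5.8 had 52.5 TPM in testis and 34.6 TPM in tail. A mixed clone was also dkey-23f9, with 3 members among 8 listed genes. Its gene si:dkey-23f9.8 had 97.8, 73.3 and 74.9 TPM in testis, si:dkey-23f9.9 had 97.4, 26.1 and 76.0 TPM, and si:dkey-23f9.13 had 47.7, 31.3 and 44.2 TPM. The gene si:dkey-23f9.11 reached 84.5, 109 and 84.2 TPM in testis but was not a member, with 20.3 TPM in muscle replicate 2 and a muscle mean of 8.26 TPM. In the RefSeq annotation of the assembly GRCz12tu, si:dkey-23f9.8 and si:dkey-23f9.9 were direct neighbours, as were si:dkey-27d5.5 and si:dkey-27d5.4, while 8 genes lay between si:dkey-27d5.13 and si:dkey-27d5.5.

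By symbol or synonym, 44 members (34.1%) matched the RefSeq table, 41 as protein-coding genes and 3 as long noncoding RNAs, against 2489 (39.8%) of all placeholder-named genes. At this share a comparison of their annotation would be void. Of the 44, 43 matched by symbol. By a synonym, the member si:dkey-202b22.6 (ENSDARG00000045552) matched cfap54, whose name stands for a cilia and flagella associated protein and which in mice is needed for the central apparatus of motile cilia and sperm tails. This identifier, listed at 726 bases, had 40.9, 29.5 and 40.04 TPM in testis and at most 1.31 TPM elsewhere. A second identifier of the same symbol, listed at 562 bases, had 55.9, 33.2 and 50.8 TPM in testis and missed the selection with 1.81 TPM in brain. The symbol as a whole thus did not meet the limits. The zgc: members were zgc:153345, zgc:193807, zgc:110425, zgc:195212 and zgc:153441, at testis means of 51.4, 46.8, 40.1, 22.3 and 20.7 TPM.

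Outside testis the members were at or near the limit of detection in most libraries. In 63 members no library outside testis held more than 3 counts, and 9 of these had no read in any of the 24. For si:ch211-117k16.4, one of the 9 with 556 bases, a count of 0 allows a level of up to 0.714 to 2.14 TPM, depending on the library. The remaining 66 members were above the floor in at least 1 library. The gene si:dkey-34d22.3, named after its values were seen, was above it in 22 of the 24 libraries, with a testis mean of 43.6 TPM and 0.557, 1.33 and 0.956 TPM in muscle replicates 1, 2 and 3. Its reads were thus not confined to testis. The highest single values outside testis belonged to si:dkey-23f9.8, with 2.92 TPM in brain replicate 1, si:dkey-111e8.4, with 2.67 TPM in muscle replicate 2, and si:dkey-85n7.11, with 2.41 TPM in muscle replicate 2. The last of these values came from 1 count.

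The reads outside testis were not spread evenly over the libraries. In muscle replicate 2, 92 members were above 0 and 41 above the floor, and their median level was 1.56% of the testis mean. In muscle replicates 1 and 3 the median was 0% and 0.113%, and the highest in the other libraries was 0.189%, in spleen replicate 1. The genes with other symbols at the same limits stood at a median of 1.65% in muscle replicate 2. Of the 120 members with any read outside testis, 55 had their highest value in that library. In summed level the members had a testis mean of 6187 TPM, against 91.7 TPM in muscle replicate 2 and at most 30.9 TPM in each of the 23 other libraries outside testis. As given above, germ cell and sperm markers were also higher in this library than in the other muscle libraries. The 3 Sertoli cell markers summed to 4.12 TPM there and to 1.73 and 13.6 TPM in muscle replicates 1 and 3. For the 4 Leydig cell markers the sums were 5.25 TPM there and 2.37 and 3.71 TPM in muscle replicates 1 and 3. Of the 5.25 TPM, 3.52 TPM came from hsd3b1, which also had a mean of 20.6 TPM in tail. The part that reads of testis cells or of testis libraries played in muscle replicate 2 was not tested. Without muscle replicate 2, 153 placeholder-named genes met the limits, all 129 among them, and without muscle replicates 2 and 3, a choice made after seeing the data, 164 did so.

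**Figure D4:**
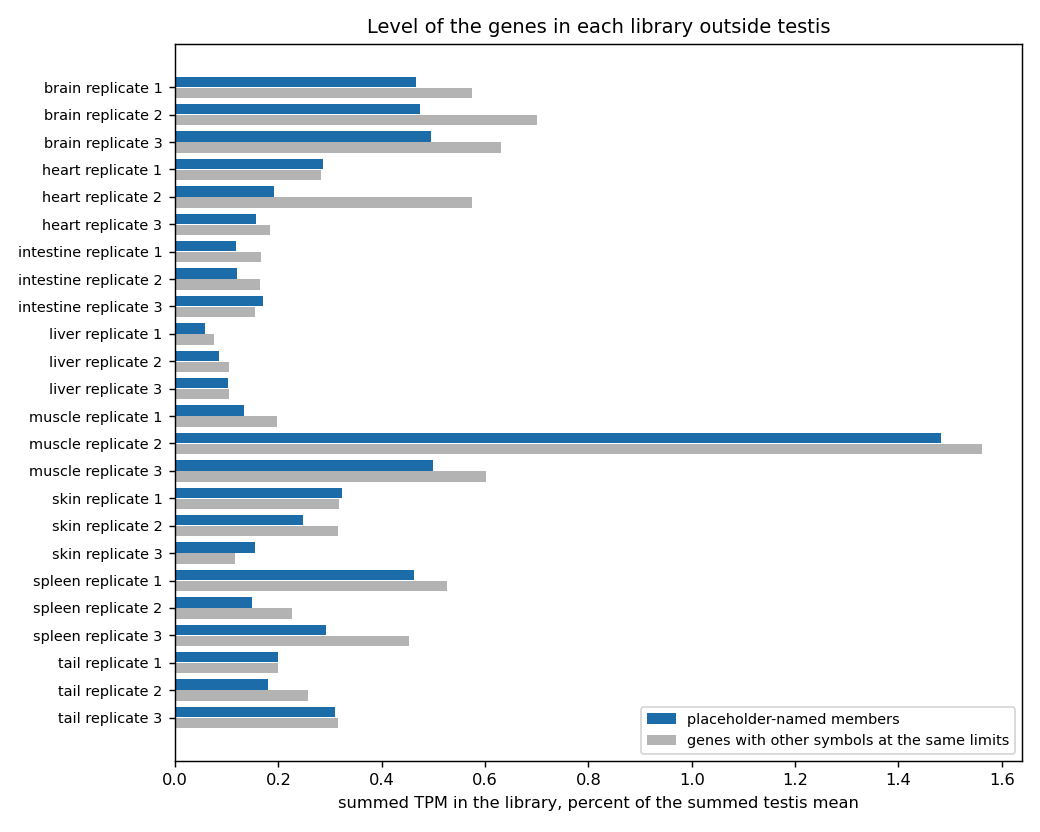
The bars give the summed TPM of the 129 members (blue) and of the 194 genes with other symbols at the same limits (grey) in each of the 24 libraries outside testis, as a percent of their summed testis mean. Muscle replicate 2 stands at 1.48% for the members and 1.56% for the other genes, and no other library exceeds 0.70%.

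The order of the other tissues was not used by the selection beyond the limit of 1 TPM. By tissue mean, the highest level outside testis was in muscle for 55 members, in brain for 31, in spleen for 15, in tail for 9 and in another tissue for 10. Without muscle replicate 2 it was in brain for 36, in muscle for 25, in spleen for 19 and in tail for 13 of 117 members with reads there. Brain was the tissue tested, against the mean of the 7 other tissues outside testis, with edgeR's quasi-likelihood test on the estimated counts. Of all 25974 genes with at least 10 counts over the 24 libraries, 27.6% were called higher in brain, with a log2 fold change of 1 or more and an adjusted p below 0.05. Of the 129 members 74 had enough reads to be tested, and 7 (9.46%) were called higher and 0 lower. The filter counts brain reads too, so reads of the tissue under test could bring a member into the test. As given below, this was so for a gene among the 7, and several of the 7 were at or under the floor in every brain library. Both the 7 and the 9.46% include these genes. The 74 include the 4 genes of ch211-287c11, which share all values and are best read as 1 measurement. The selection kept the mean of every member below 1 TPM in brain and in each of the 7 other tissues. The 2 shares therefore cannot be set against each other, and the fold changes and p-values of members rest on values capped in this way. The median log2 fold change was -0.11 over the 74 members and 0.02 over all genes tested. Several members with no reads in brain and in another tissue had fold changes that this fit could not estimate. For si:dkey-248f6.3, with 0 counts in each brain library, the log2 fold change was -2.71 with an SE of 7940. Such members could not be called lower, so the 0 lower calls say nothing about them, and the median includes their values.

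The 7 genes had low levels in brain, between 0.05 and 1.43 TPM in single libraries. The gene zgc:153345 had 0.72, 0.73 and 1.10 TPM in brain replicates 1, 2 and 3, from 11, 16.01 and 18 counts, and at most 0.50 TPM in the 21 libraries of the other tissues outside testis. Brain and the rest did not overlap, with a log2 fold change of 1.58 (SE 0.458, adjusted p = 0.0047, edgeR). The gene si:dkey-26i13.8 had 0.92, 0.82 and 0.53 TPM in brain and reached 1.21 TPM in muscle replicate 2, so that the groups overlapped (log2 fold change 2.26, adjusted p = 0.016, edgeR). In si:dkey-65l23.2 the brain values were 0.61, 0.73 and 0.05 TPM, with 0.83 TPM in muscle replicate 2 and at most 0.20 TPM in the rest (log2 fold change 3.23, adjusted p = 0.029, edgeR). Here too the groups overlapped, and 1 brain library was near 0.

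The other 4 rested on fewer reads or varied more between the brain libraries. The genes si:ch211-163m17.4, si:ch1073-75f15.2 and si:ch211-208g12.1 had between 1 and 3 counts in every brain library. Their brain values were 0.30, 0.27 and 0.97 TPM for si:ch211-163m17.4, 1.17, 0.36 and 1.27 TPM for si:ch1073-75f15.2, and 0.37, 1.01 and 1.20 TPM for si:ch211-208g12.1. All of these counts are at or under the floor, so the calls rest on reads that are few in brain and mostly absent elsewhere. The gene si:dkey-42p14.3 had 1.43, 0.65 and 0.65 TPM in brain, from 12, 6 and 5 counts, and up to 0.60 TPM in the other tissues outside testis (log2 fold change 1.85, adjusted p = 0.042, edgeR). In this gene, too, brain and the rest did not overlap, by a small margin, but its call was lost in 13 of 32 other settings, among them DESeq2 (adjusted p = 0.14) and edgeR without brain replicate 1, 2 or 3 (adjusted p = 0.22, 0.059 and 0.059). Fitted fold changes of genes with no reads in several tissues depend on the small count that the fit adds. The number called was 3 of 73 members without brain replicate 1, 4 of 74 without brain replicate 2 and 3 of 73 without brain replicate 3. Of all genes, 26.3%, 26.3% and 26.6% were called in these settings. Without muscle replicate 2 the number was 9 of 66 members, with 27.9% of all genes called. DESeq2 called 1 of 74 members higher, zgc:153345, with 25.7% of all genes called. The edgeR call of zgc:153345 was kept with each library left out. The calls of the other 5 genes were lost in between 2 and 4 of the 30 to 32 settings in which each was tested, DESeq2 among them. In the settings not counted, the gene had too few reads to be tested, so it had no call there either. For si:ch211-163m17.4 these included edgeR without brain replicate 3, so it passed the filter on counts only with the reads of that library. On log2(TPM + 1) in limma 19 members had an adjusted p below 0.05 and were higher in brain, but a brain mean under 1 TPM cannot give a log2 fold change of 1 on that scale, so that fit allows no call.

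**Figure D5:**
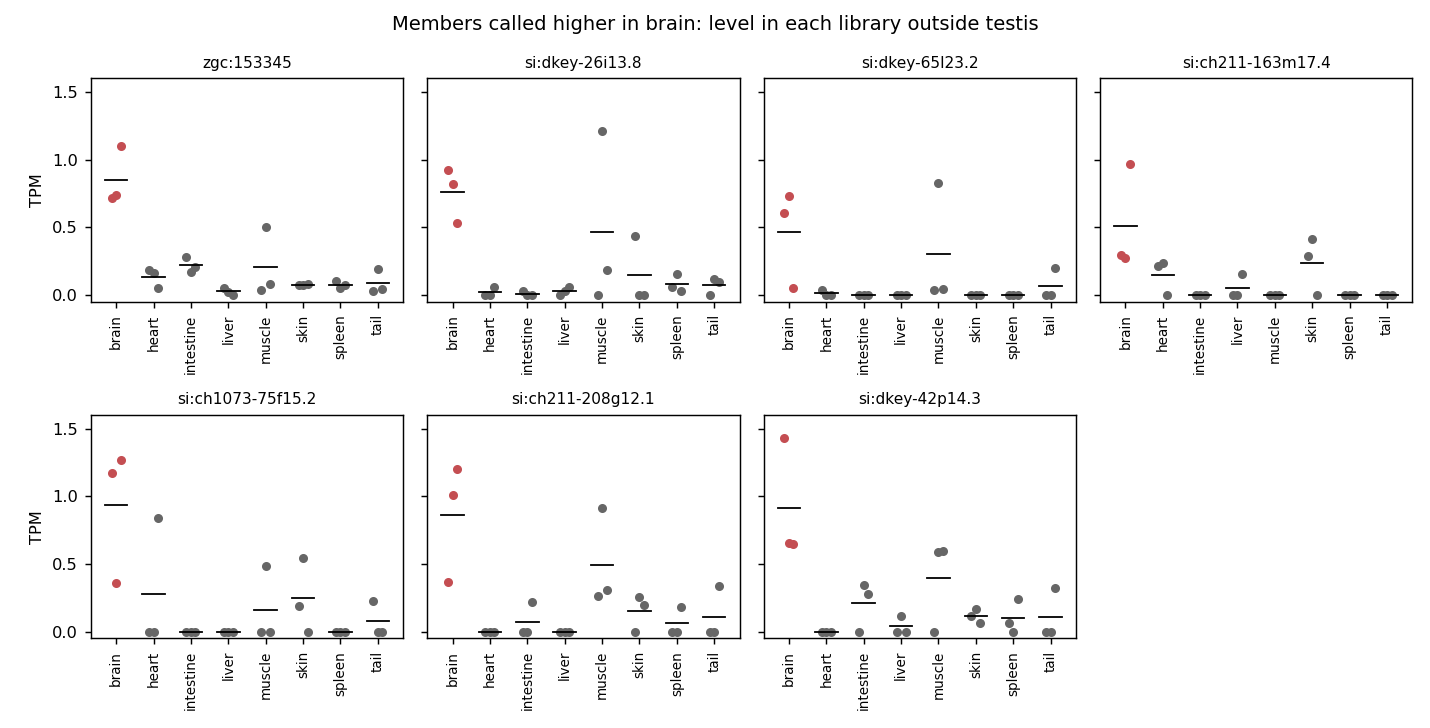
Each panel gives the TPM of 1 of the 7 members called higher in brain, in all 24 libraries outside testis, with 1 point per library, a bar at the mean of 3 and brain in red at the left. In zgc:153345 the 3 brain values lie above all others, and in si:dkey-26i13.8 the value of 1.21 TPM in muscle replicate 2 lies above the brain values.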

How the data were processed

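Adult tissue RNA from 27 libraries, 3 for each of 9 tissues, was analysed from the gene tables that the authors deposited for each library. The deposited estimated counts are reads per gene, neither normalized nor always whole, and the TPM values were corrected by the authors for effective length and sum to the same total in each library. Lengths and effective lengths, in bases, are deposited beside them. The submitters' processing notes name cutadapt 1.18, HISAT2 2.1.0, SAMtools 1.9 and kallisto 0.43.0 and the build GRCz11, and their roles and the annotation are not given in the sources used here.

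Groups were taken from the labels. Symbols came from a table of gene identifiers that matched 29201 of 32524 genes, and RefSeq names and neighbours from the assembly GRCz12tu, so no coordinates are given. The members and lists were chosen with earlier results of these data known. Levels are means ± SD over 3 libraries, computed in Python 3.11.15 with pandas 2.3.3. Brain was compared with the mean of the 7 other tissues outside testis in edgeR 4.0.16 (R 4.3.3, TMM, quasi-likelihood test with Benjamini-Hochberg adjustment over all genes tested), on estimated counts rounded to whole numbers, for genes with at least 10 counts over the 24 libraries. The SE was derived from the fold change and its F value. In simulated data with 200 genes changed by 4-fold among 25820, this test recovered 200 and called 2 unchanged genes. The changed genes were drawn from genes with more reads per library than the 7 members called had outside testis. The same spread was set for every gene. The simulation therefore does not show how the test performs on genes with as few reads as the members. Alternatives were other limits, rescaling, DESeq2 1.42.0, limma 3.58.1, other filters and each library left out.

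The genes named were the 12 highest in testis, those nearest the limits, those called in brain, the 3 widest and 3 tightest in testis, those with a RefSeq description, and the 3 highest single values outside testis. Others were named after their values were seen, as said beside them, on clones or among the zgc: genes. Sequence-based comparisons (families of similar protein, promoter motifs) were not run.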

Additional observations from a re-analysis of the deposited data

How the results depend on the processing

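The number of placeholder-named genes that met the limits was 129. It was 255 and 41 with a testis minimum of 10 and 50 TPM, 69 and 196 with a limit outside testis of 0.5 and 2 TPM, 78 with at most 3 counts in each library outside testis in place of that limit, 58 after median-of-ratios rescaling and 46 with the limits met in each library. With each of the 27 libraries left out it ranged between 114 (without muscle replicate 1) and 153 (without muscle replicate 2), and 116 of the 129 remained without testis replicate 1. After rescaling, the summed testis level was 2821 TPM and the median share in muscle replicate 2 was 3.66%. Leaving out testis libraries gave 5585 to 6643 TPM and 1.48% to 1.64%. The scaling lowered every one of the 12 highest testis means. In brain edgeR called 7 members higher, among them genes at or under the floor in every brain library. DESeq2 called 1 higher and 1 lower. The count was 0 in limma with a pseudocount of 1, where the limit of 1 TPM puts the fold out of reach (19 had an adjusted and an unadjusted p under 0.05), 20 in limma with a pseudocount of 0.1, 3 with at least 30 counts, and 3 to 9 with a library left out, lowest without brain replicate 1 or 3, and 9 without muscle replicates 2 and 3 (chosen after seeing the data). The median of all genes lay at 0.89 and 1.36 (log2) in the limma fits, so their calls include that shift. A replicate block in edgeR left 7 calls, with 27.8% of all genes called. Deviations of same-numbered libraries correlated with a mean r of 0.11 (-0.04 to 0.33), and all 24 libraries correlated best with their own number, a hint from the data and not the design. The causes were not tested. Families of similar protein and promoter motifs were not run. Depth limits the levels outside testis and those of the shortest members.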

Other observations

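The 194 genes with other symbols that met the same limits in testis included 30 genes (15.5%) whose symbol starts with pimr. This family is named for its likeness to Pim proto-oncogene serine/threonine kinases. Over all 22943 genes with another symbol there were 180 pimr genes. The count of 30 was made after the values were seen and has no test. Copies of such a family can share reads, so the single levels are uncertain.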
